A study of Mus musculus with 13 samples.

Results

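The insulin and insulin-like growth factor pathway was described through 9 genes of the 32285 in the deposited matrices: the ligand Igf1, the receptors Insr and Igf1r, the adaptors Irs1 and Irs2, the transcription factors Foxo1, Foxo3 and Foxo6, and the kinase Mtor. The genes were chosen by name, with earlier results of these data known, and all 9 were found. They were measured by single-nucleus RNA sequencing of whole frozen hippocampus from 13 female mice, with 1 library per mouse. The strain, an F1 hybrid, is written C3HB6F1 on the samples and C3B6F1 in the series text. Young mice fed ad libitum were 5 months old (n = 3). The other groups were 24 months old: mice fed ad libitum (n = 3, numbered 1, 2 and 4), mice under acute dietary restriction, which began at 20 months (n = 3), and mice under long-term dietary restriction, which began at 5 months (n = 4). Restriction was studied in old mice alone, and all mice were female. The design sets out to ask how hippocampal cells differ with age and how old cells differ with the length of restriction.

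As background, insulin and IGF1 bind related receptor tyrosine kinases, encoded by Insr and Igf1r. The activated receptors phosphorylate the adaptors Irs1 and Irs2, which recruit PI3 kinase and so activate AKT. AKT keeps FoxO transcription factors out of the nucleus and relieves the block on mTOR complex 1, a kinase complex that promotes protein synthesis and restrains autophagy. In brain the pathway is known for its part in growth, energy balance and plasticity, and reduced activity of the pathway is linked to long life in several animals. Most of this control acts on proteins, which nuclear RNA does not show.

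The matrices held 105759 barcodes, and libraries ranged from 38546292 to 80538088 unique molecular identifiers (UMIs, each standing for 1 captured RNA molecule). After filtering, 98041 nuclei were clustered, and 80006 of them fell in clusters named from marker genes. The names are rebuilt from those markers and are written "X-like". Dentate granule neuron-like nuclei were the most numerous (35715), as a hippocampal dissection would hold. Counts were summed per mouse and class, and 11 classes had enough nuclei to be tested. A level is given in CPM, the usual depth-scaled unit of counts: the gene's UMIs relative to all UMIs of that sum after TMM scaling. It is a share of the RNA of a class and says nothing of the amount of RNA per nucleus. Orders of classes cover the 11 tested classes, unless others are named. CPM values of different genes are not compared, since they depend on gene length and on priming within introns. Some barcode sequences (1351 of 104066, 1.298%) occurred in more than 1 library.

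The genes lie on 6 chromosomes of the GRCm38 build. Insr spans chr8:3122061-3279617 on the minus strand and Igf1r spans chr7:67952827-68233668 on the plus strand. Igf1 spans chr10:87858265-87937042 (plus), Irs1 chr1:82233101-82291416 (minus) and Irs2 chr8:10984681-11008458 (minus). Foxo1 spans chr3:52268336-52353221 (plus), Foxo3 chr10:42181841-42276755 (minus), Foxo6 chr4:120267079-120287349 (minus) and Mtor chr4:148448611-148557683 (plus). Genes counted on the opposite strand overlap 6 of them: Gm16180 in Insr, Igf1os in Igf1, Gm9747 in Irs1, 9530052E02Rik in Irs2, Gm20402 in Foxo1 and Angptl7 in Mtor. Whether counting used strand is not given in the sources used here, so the values of these 6 genes are uncertain to that extent. Of the 99 pairs of gene and class, 73 passed the filter on low counts: Insr and Igf1r in 11 classes, Foxo1 and Foxo3 in 10, Mtor in 9, Irs1 and Irs2 in 8, Foxo6 in 4 and Igf1 in 2.

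**Figure D1:**
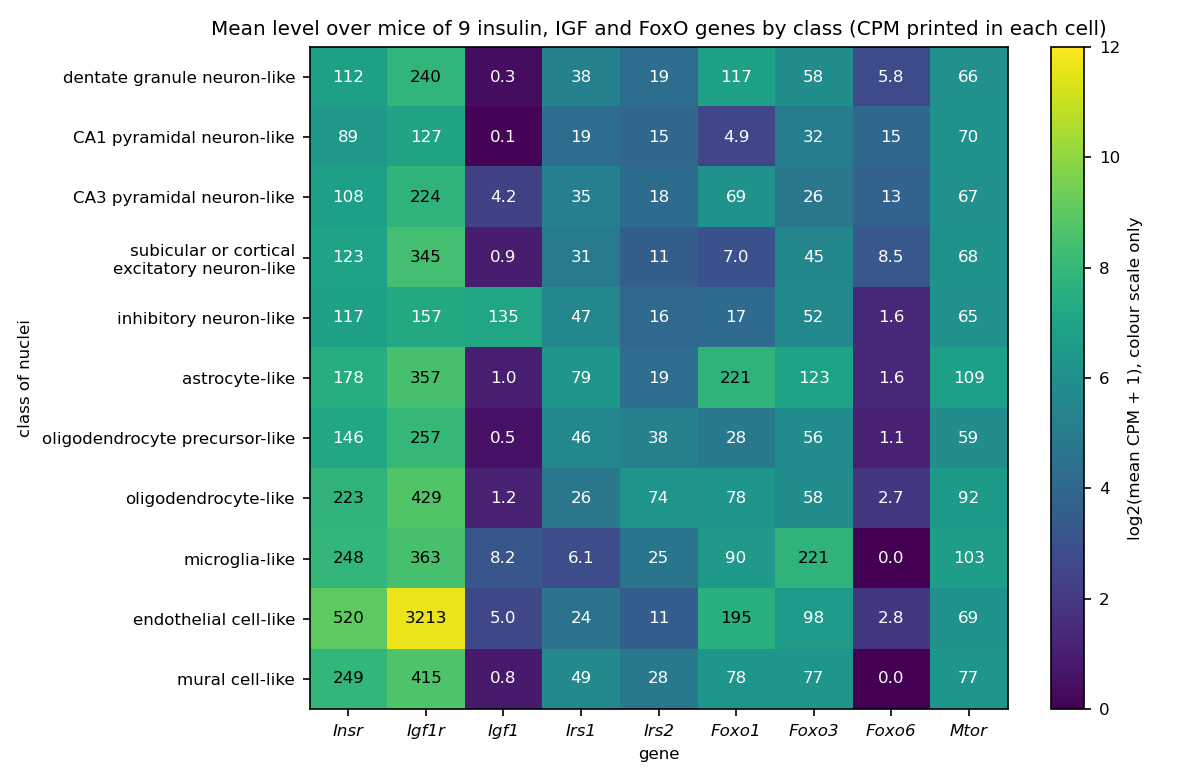
Mean level of each gene (columns) in each class of nuclei (rows), with the CPM printed in the cells and the colour following log2(mean CPM + 1). Igf1 stands out in the inhibitory neuron-like row and Igf1r in the endothelial cell-like row, whereas Mtor varies little down its column.

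Igf1, the gene of the secreted growth factor, was read mainly in inhibitory neuron-like nuclei. Its level there was 135 ± 25.3 CPM (SD, n = 13 mice), with a lowest mouse of 95.9 and a highest of 179.7 CPM. That class held 5.188% of the retained nuclei and 84.36% of the 7284 Igf1 UMIs. The next tested class, microglia-like nuclei, stood at 8.20 ± 12.4 CPM from 21 UMIs, with 7 of 13 mice at 0. Igf1 was higher in the inhibitory neuron-like sum than in the microglia-like sum of the same mouse in 13 of 13 mice (exact sign-flip permutation test, two-sided, adjusted p = 0.00275 over 90 pairs of neighbouring classes). The other neighbours in the order of Igf1 levels were not separated on both scales tried, log2 CPM and CPM. CA3 pyramidal neuron-like nuclei stood at 4.18 CPM, unevenly spread over both clusters of the class: 126 UMIs in 1490 nuclei of the one led by Col6a1 and 9 UMIs in 1508 nuclei of the one led by Nectin3. The level was 0.324 CPM (71 UMIs) in dentate granule neuron-like nuclei and 0.0794 CPM (11 UMIs) in CA1 pyramidal neuron-like nuclei. Unnamed clusters held 8.416% of the Igf1 UMIs, among them a cluster of 554 nuclei led by Zfhx3 at 45.48 CPM over pooled mice and one of 497 nuclei at 36.93 CPM.

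Within the inhibitory class, Igf1 was unevenly spread over clusters. The cluster led by Col19a1, Adarb2 and Cnr1 held 290.2 CPM ± 45.4 (SD, n = 13, range 213 to 359.6). Its marker score was best for the Vip interneuron list, but these genes do not settle that name. Adarb2 stood in the Vip and the Cnr1-high marker lists, Cnr1 in the Cnr1-high list alone, and Vip was not among the 10 leading genes. Col19a1 also led the cluster of Nxph1 and Kcnc2. The cluster led by Reln, Egfr and Ndnf held 208.7 CPM (SD 35.7, n = 11, range 135 to 257). Its marker score was best for the Lamp5 interneuron list, which holds Reln and Ndnf but not Egfr. Lamp5 was not among its 10 leading genes, and Reln and Ndnf also led the Cajal-Retzius neuron-like cluster. The remaining inhibitory clusters were led by Erbb4 and Fgf13 in one case and by Nxph1 and Kcnc2 in the other. They held 61.7 ± 15.8 (n = 12) and 43.5 ± 13.6 CPM (n = 13). The highest mouse of the last cluster (72.5 CPM) was below the lowest mouse of both Igf1-rich clusters. Igf1 itself was among the 10 leading genes of the first cluster, although it was kept out of the genes used for clustering. These cluster levels are a description. Outside the tested classes, macrophage-like nuclei reached 235.7 and 298.2 CPM in the only 2 mice with 20 such nuclei. Fibroblast-like nuclei ranged from 0 to 128 CPM over 8 mice.

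**Figure D2:**
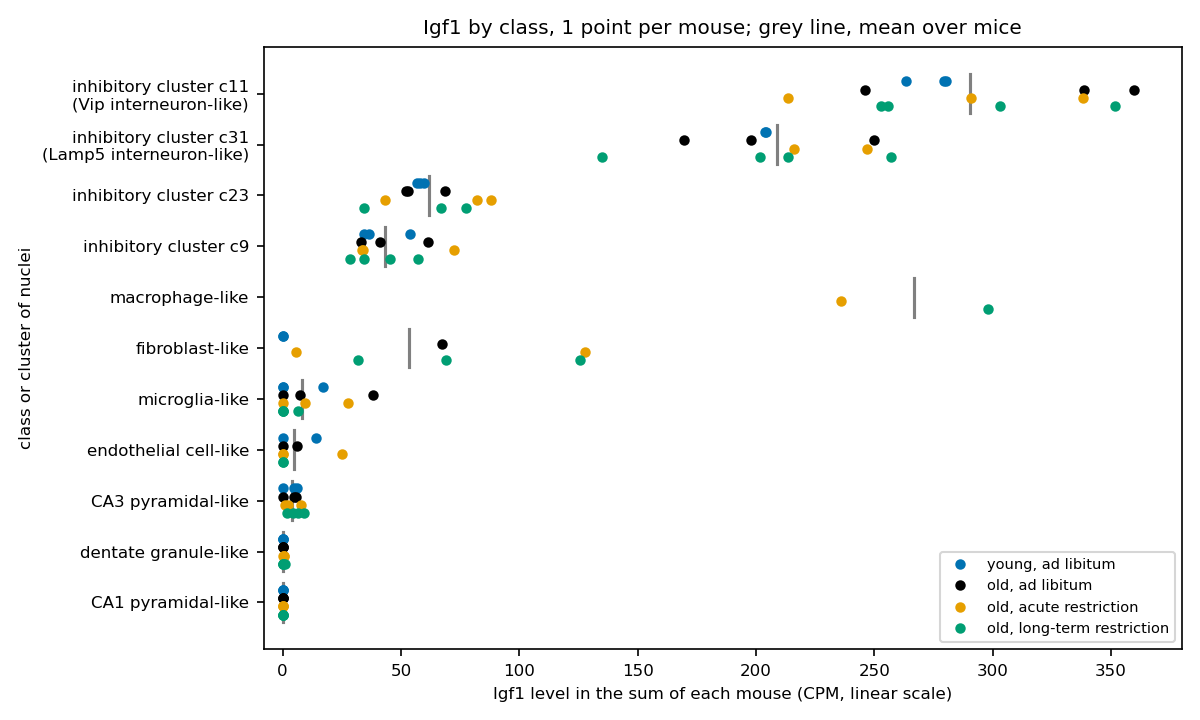
Igf1 level (CPM, linear axis) in the sum of each mouse, by class and by inhibitory cluster; each point is 1 mouse, coloured by group. The top row is the Col19a1, Adarb2 and Cnr1 cluster. Its label, Vip interneuron-like, follows its best marker score, and its leading genes do not settle that name. Points of this cluster lie between 213 and 359.6 CPM, and all 4 groups overlap in it. The row below is the Reln, Egfr and Ndnf cluster, labelled Lamp5 interneuron-like by the same score.

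Igf1r, the receptor with high affinity for IGF1 and IGF2, was highest in endothelial cell-like nuclei, at 3213 ± 730.0 CPM (SD, n = 9 mice; 2349.5 to 4730.5). This was 7.49 times the mean of the next tested class, oligodendrocyte-like nuclei (429 ± 75.2), and 25.3 times that of the lowest, CA1 pyramidal neuron-like nuclei (127 ± 18.8). Fibroblast-like sums (536.5 CPM, n = 8) and Cajal-Retzius neuron-like sums (468 CPM, n = 7) lay between these levels but were not tested. Endothelial cell-like nuclei held the highest level among tested classes in 9 of 9 mice, and the step to oligodendrocyte-like nuclei passed the test (exact sign-flip permutation, adjusted p = 0.013). Mural cell-like (415), microglia-like (363), astrocyte-like (357) and subicular or cortical excitatory neuron-like (345) sums formed a stretch of neighbours that were not separated. Among the tested neurons, subicular or cortical excitatory neuron-like sums stood at 345 CPM, granule at 240.2, CA3 pyramidal neuron-like at 224, inhibitory neuron-like at 157 and CA1 pyramidal neuron-like at 127. Granule sums were not separated from CA3 sums (adjusted p = 0.257, exact permutation). CA3 exceeded inhibitory sums in 13 of 13 mice and inhibitory exceeded CA1 sums in 12 of 13 (adjusted p = 0.00275 and 0.00507, exact permutation).

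Insr, the insulin receptor gene, shared that top class among those tested. It stood at 520.3 CPM ± 129 (SD, n = 9; 366 to 791) in endothelial cell-like nuclei and at 249 ± 47.7 in mural cell-like nuclei, higher in 8 of 8 mice that had both (adjusted p = 0.0234, exact permutation). Glia came next: microglia-like (248), oligodendrocyte-like (223), astrocyte-like (178) and oligodendrocyte precursor-like sums (146). The 5 tested neuronal classes were lowest, from 123 CPM in subicular or cortical excitatory neuron-like sums through inhibitory (117), granule (112) and CA3 pyramidal neuron-like sums (108), to 89.2 ± 11.1 CPM in CA1 pyramidal neuron-like sums. Oligodendrocyte-like exceeded astrocyte-like sums in 12 of 13 mice, and astrocyte-like exceeded precursor-like sums in 12 of 13 (adjusted p = 0.0326 and 0.00905, exact permutation). Subicular, inhibitory, granule and CA3 neighbours were not separated. Outside the tested classes, macrophage-like sums stood at 350.6 CPM (2 mice) and Cajal-Retzius neuron-like sums at 163.9 CPM (n = 7). Endothelial cell-like sums rested on few nuclei (380 in all, 20 or more in 9 mice), and on 477 Insr and 3053 Igf1r UMIs.

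The adaptors differed in their highest class. Among tested classes Irs1 was highest in astrocyte-like nuclei, at 78.9 ± 19.9 CPM (SD, n = 13; 59.5 to 139), and lowest in microglia-like nuclei, at 6.13 CPM from 12 UMIs. Between these lay mural cell-like (48.7), inhibitory neuron-like (46.7), oligodendrocyte precursor-like (45.8), granule (37.6), CA3 (34.9), subicular or cortical excitatory neuron-like (30.8), oligodendrocyte-like (25.7), endothelial cell-like (23.6) and CA1 sums (19.1). None of the 10 steps between neighbours of Irs1 was separated on both scales, the step from astrocyte-like to mural cell-like sums included. Untested fibroblast-like sums stood at 91.4 CPM (n = 8), and the inhibitory cluster led by Reln, Egfr and Ndnf at 106.5 CPM (SD 31.9, n = 11). Irs2 was highest in oligodendrocyte-like nuclei, at 73.8 ± 14.8 CPM (n = 13; 54.4 to 95.8), above oligodendrocyte precursor-like nuclei at 37.7 ± 8.21 CPM in 13 of 13 mice (adjusted p = 0.00275, exact permutation). The 5 tested neuronal classes had lower means, between 11.5 and 18.9 CPM, and hilar mossy cell-like sums, which were not tested, held 2.73 CPM (n = 8).

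Promoter stretches of both adaptors are shown because they alone among the members held a motif in the following search. The 250 bases before the start of each gene (RefSeq, GRCm38.p6) were searched on both strands for TGTTTAC, a FoxO consensus core, and TGTTTTG, the core of the insulin response sequence. The motifs differ in their last letters and do not overlap each other in these sequences. RefSeq's starts differ from the gene limits given above, which come from another annotation. Promoters were found for 7 of the 9 genes, and only Irs1 and Irs2 held a motif. The same search covered the 14 genes listed below as FoxO relatives and targets. Promoters were found for 11 of these, and only Txnip (TGTTTAC) and Ccng2 (TGTTTTG) held a motif. Capitals mark TGTTTTG, and each line runs 5′ to 3′ on the gene's own, minus strand:
Irs1 at chr1:82291524-82291570: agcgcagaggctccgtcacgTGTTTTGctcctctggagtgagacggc
Irs1 at chr1:82291445-82291491: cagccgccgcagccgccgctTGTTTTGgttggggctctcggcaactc
Irs2 at chr8:11008940-11008986: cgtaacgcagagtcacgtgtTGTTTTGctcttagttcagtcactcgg

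TGTTTTG was present in 5.56% of 32851 mouse promoters of that length and TGTTTAC in 3.17%. A match is a description of letters and was not tested as a binding site.

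The FoxO genes each had their own order of classes. Foxo1 was highest in astrocyte-like nuclei, at 221 ± 35.6 CPM (n = 13; 162 to 291), and in endothelial cell-like nuclei, at 195 ± 63.6 CPM (n = 9), which were not separated from each other. It varied 45.5 times between astrocyte-like and CA1 pyramidal neuron-like sums (4.86 ± 2.31 CPM). Neurons differed widely in Foxo1: dentate granule neuron-like sums stood at 117 ± 15.0 CPM (87.5 to 136), CA3 at 68.7 ± 32.8, inhibitory at 17.5 ± 3.64 and subicular or cortical excitatory at 7.0 ± 3.01. The lowest granule mouse (87.5) was above the highest CA1 mouse (9.48). Inhibitory exceeded subicular or cortical sums in 13 of 13 mice (adjusted p = 0.00275, exact permutation). CA3 sums ranged from 29.9 to 147 CPM.

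Foxo3 was highest in microglia-like nuclei, at 221 ± 89.5 CPM (n = 13; 111 to 472), above astrocyte-like nuclei at 123 ± 26.7 CPM in 13 of 13 mice (adjusted p = 0.00275, exact permutation). It was lowest in CA3 pyramidal neuron-like sums, at 25.6 ± 4.81 CPM. The order at the low end was stepwise: inhibitory sums (51.8), subicular or cortical (45.2), CA1 (31.7) and CA3 (25.6), each higher than the next in at least 11 of 13 mice and past the test. Untested hilar mossy cell-like sums stood at 25.5 CPM (n = 8).

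Foxo6, the family member known from brain, was read at low levels, highest in excitatory neurons. Of its 4592 UMIs, granule sums held 29.44%, CA1 26.28%, CA3 9.691% and subicular or cortical sums 6.969%, and unnamed clusters held 22.39%. It stood at 14.9 ± 4.42 CPM in CA1, 12.8 ± 3.59 in CA3, 8.51 ± 2.48 in subicular or cortical and 5.85 ± 1.86 in granule neuron-like sums (SD, n = 13 each). CA3 exceeded subicular sums in 11 mice and these exceeded granule sums in 12 mice (adjusted p = 0.00905 each, exact permutation), while CA1 and CA3 were not separated. Microglia-like and mural cell-like sums held 0 Foxo6 UMIs, which allows up to 1.24 and 4.12 CPM from counting error alone. Among tested classes Foxo6 had its highest mean where Foxo1 had its lowest; neither was separated from its neighbour on both scales.

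Mtor, the kinase at the core of both mTOR complexes, varied least of the 9 genes between tested classes. Its means over tested classes ran from 58.6 ± 11.9 CPM in oligodendrocyte precursor-like sums to 109 ± 16.4 CPM in astrocyte-like sums, a ratio of 1.87. The 5 tested neuronal classes lay between 65.3 and 70.4 CPM. No neighbouring pair of classes was separated on both scales for Mtor.

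Across the 9 genes, 22 of 90 neighbouring pairs of classes were separated on both scales and 33 on the log2 scale, which fell to 21 with at least 50 nuclei per sum. At that minimum too few mice had endothelial cell-like or mural cell-like sums for any step with these classes to pass. Pairs separated on the log2 scale alone include some with few UMIs, where that scale depends on the prior count, such as Igf1 in oligodendrocyte precursor-like over granule sums, on 5 precursor UMIs. The genes closest to each member in class means are given as a description over 11 classes, which share libraries and depth, among 13799 genes. These are means of log2 CPM, where the prior count lifts genes with few UMIs in shallow classes. Foxo6 had a mean of 4.62 in mural cell-like sums on 0 UMIs and 3.87 in CA1 sums. Igf1 had 4.67 in mural cell-like sums on 1 UMI. A high r for such genes need not mean a shared pattern of expression, and the part of depth in it was not tested. Pearson r was 0.99 for Insr with Atp6v1g1, a subunit of the vacuolar proton pump, 0.94 for Igf1r with Polk, a translesion DNA polymerase, and 0.98 for Igf1 with A530058N18Rik. It was 0.92 for Irs1 with Sesn3, 0.96 for Irs2 with Aebp2, 0.89 for Foxo1 with Hlcs, 0.97 for Foxo3 with Mga, 0.99 for Foxo6 with Spag6 and 0.95 for Mtor with Lnpep. Sesn3 encodes a sestrin that restrains mTOR complex 1.

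Both receptors and Mtor were higher in dentate granule neuron-like nuclei of old than of young mice fed ad libitum, and Igf1r was higher in oligodendrocyte precursor-like nuclei. These were the 4 member pairs called (edgeR quasi-likelihood, Benjamini-Hochberg adjusted p below 0.05) of 73 tested, against 1.58% of all 108794 pairs of gene and class called in either direction and 0.907% called higher. Igf1r in granule sums stood at 172, 147 and 169.9 CPM in young mice and at 266, 276 and 253 CPM in old mice fed ad libitum. The group means were 163.0 ± 14.2 and 265 ± 11.9 CPM (SD, n = 3 each), and the groups did not overlap. The log2 fold change was 0.70 (SE 0.13, 95% interval 0.432 to 0.97, adjusted p = 0.0192, edgeR).

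Insr in granule sums stood at 88.2, 83.1 and 97.2 CPM in young mice and at 114, 123 and 129 CPM in old mice. All old mice were above all young mice, with a log2 fold change of 0.45 (SE 0.10, interval 0.224 to 0.673, adjusted p = 0.0404, edgeR). Mtor in granule sums stood at 53.8, 46.0 and 54.2 CPM in young mice and at 68.8, 71.0 and 70.6 CPM in old mice. The groups again did not overlap (log2 fold change 0.45, interval 0.24 to 0.659, adjusted p = 0.0354, edgeR). Foxo1 in the same sums stood at 94.98, 87.5 and 103 CPM in young mice and at 119.6, 131 and 126 CPM in old mice. Its groups did not overlap either, but its log2 fold change of 0.40 missed the threshold (adjusted p = 0.0505, edgeR), which it passed in DESeq2 (adjusted p = 0.0161). In granule sums 3.34% of all genes were called and 2.48% were called higher.

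Igf1r in oligodendrocyte precursor-like sums stood at 225, 157 and 201 CPM in young mice and at 279, 314 and 299.5 CPM in old mice. The lowest old mouse was above the highest young mouse, and the log2 fold change was 0.60 (SE 0.16, interval 0.277 to 0.917, adjusted p = 0.041, edgeR). In that class 2.04% of all genes were called and 1.1% were called higher. Igf1r was the gene with the most uniform direction: its log2 fold change was above 0 in 11 of 11 classes, from 0.27 in CA1 to 1.15 in mural cell-like sums. Its groups did not overlap in 8, against 12.6% of all pairs with the old mice higher. The classes come from the same mice and are not independent of each other. The mural value rests on 2 young and 2 old mice, and mural cell-like sums over all groups held 10 to 62 Igf1r UMIs. In inhibitory neuron-like sums Igf1r stood at 108, 118.5 and 137 CPM in young and 159, 165 and 175 CPM in old mice (0.46, adjusted p = 0.109, edgeR); this pair was called in DESeq2 (adjusted p = 0.0368) and with the replicate block (0.0209). In microglia-like sums it stood at 75.0, 284 and 287 against 509, 448 and 429.9 CPM (0.79, adjusted p = 0.085, edgeR), where the lowest young value rests on 2 UMIs.

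**Figure D3:**
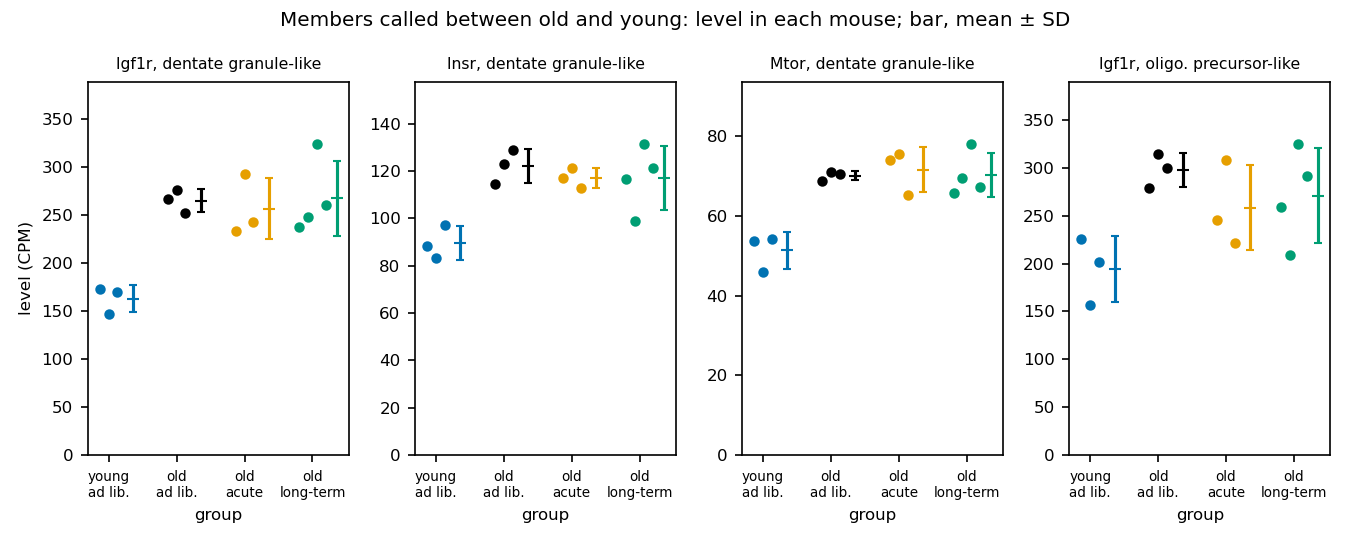
Level (CPM, axis from 0) in each mouse of the 4 groups for the 4 pairs of gene and class called between old and young mice; points are mice and bars show the mean ± SD. In each panel the young mice lie below all old mice fed ad libitum. In the granule panels the restricted mice lie near or among the old ad libitum mice. In the oligodendrocyte precursor-like panel the median of all 13 mice is 259 CPM, and some restricted mice lie below all old ad libitum mice.

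Over all members, 58 of 73 pairs had a log2 fold change above 0 with age, with a median of 0.27, against 47.77% of all pairs and a median of -0.02. Groups did not overlap with the old mice higher in 25 of the 73 pairs and with the old mice lower in 0, against backgrounds of 12.6% and 9.46%. An unadjusted p below 0.05 was reached by 25 pairs, against 18.5% of all pairs. The members were chosen with earlier results of these data known, so these counts and the member calls are a description. By role, the receptors and Mtor held most of the non-overlapping pairs (Igf1r 8, Insr 6, Mtor 6), followed by Foxo3 with 3 and Irs1 and Foxo1 with 1 each. Igf1, Irs2 and Foxo6 held none. Igf1 in inhibitory neuron-like sums was 125, 114 and 147 CPM in young mice and 166, 167 and 114 CPM in old mice, which overlap (0.21, interval -0.235 to 0.648).

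**Figure D4:**
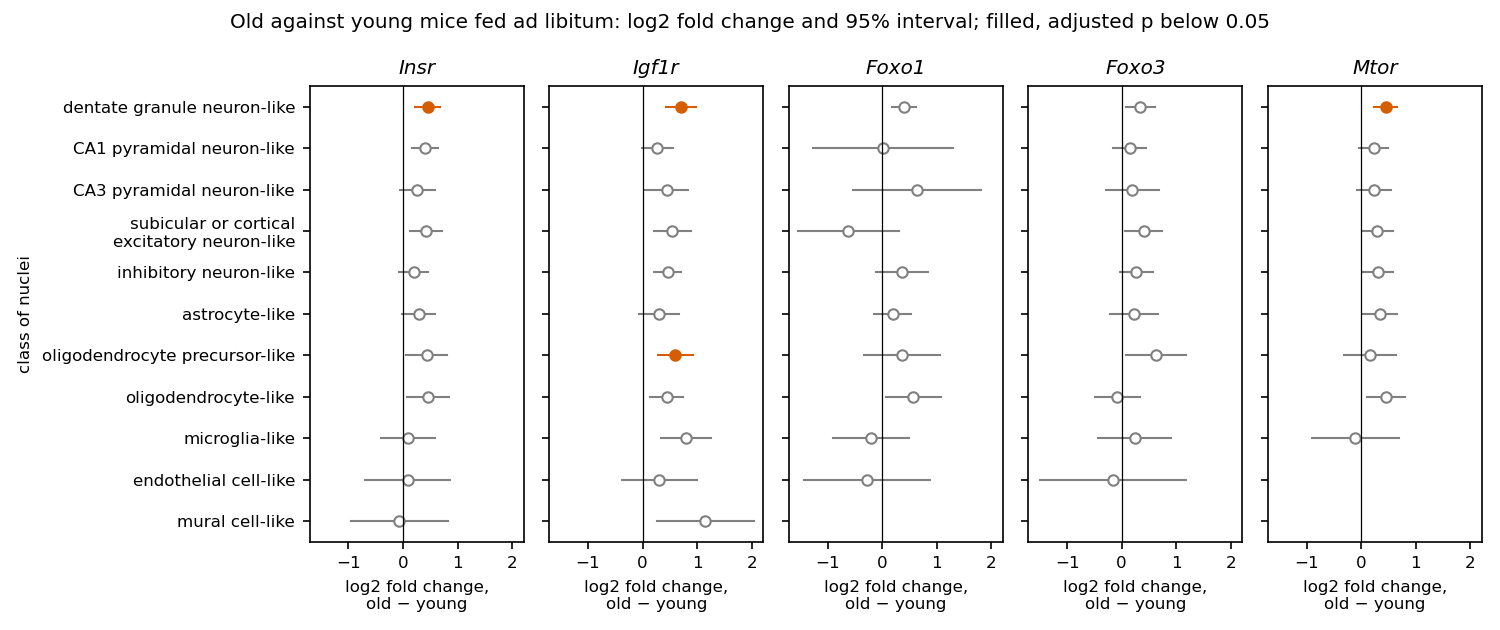
Log2 fold change between old and young mice fed ad libitum (points) with its 95% interval (lines) for 5 genes across classes; filled points have an adjusted p below 0.05. Every Igf1r point lies to the right of 0, and 4 points in all are filled: Insr, Igf1r and Mtor in granule and Igf1r in oligodendrocyte precursor-like sums.

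Gene length moved with age in the same data. In granule sums the Spearman correlation between gene span and the ageing log2 fold change was 0.47 across 16445 genes, with medians of 0.22 in the longest 25% of genes (from 62.56 kb) and -0.42 in the shortest 25%, and 5 of the 8 members tested there were among the longest. With that trend removed, 1 of the 4 calls was made, Igf1r in granule sums (0.42, adjusted p = 0.048, edgeR), 51 of 73 pairs were above 0 with a median of 0.12, and Igf1r in oligodendrocyte-like sums turned from 0.44 to -0.07. Depth moved with age too: median UMIs per granule nucleus were 3800 to 6388 in young and 6963.5 to 12752 in old mice fed ad libitum. With that depth as a covariate no member was called (Igf1r in granule 0.48, adjusted p = 0.524, edgeR). Depth did not overlap between these groups, so age and depth cannot be told apart in granule sums. The same depth was 5551 to 6860 UMIs under acute and 6263 to 9056 under long-term restriction. The larger of 2 main granule clusters in young mice held 56.59% to 67.99% of their granule nuclei and 28.83% to 48.87% in old mice. Fitted within each of these clusters, Igf1r was called in both (0.62 and 0.66, adjusted p = 0.0234 and 0.02, edgeR). Insr and Mtor were called in the cluster that was larger in young mice (0.42 and 0.55, adjusted p = 0.0441 and 0.016) and not in the other (0.39 and 0.39, adjusted p = 0.0557 and 0.079). The summed CA3 marker list in granule sums was 563 to 683 CPM in young and 782 to 911 CPM in old mice. The oligodendrocyte list (294 to 320.1 against 321 to 364 CPM) and the committed precursor list (144.5 to 159 against 173.5 to 188 CPM) were also higher there. St18 held 66.4% and 61.0% of the first in young and old mice, and Fyn alone 98.6% and 97.7% of the second. The mural list was lower (4.22 to 6.80 against 1.99 to 4.06 CPM). In oligodendrocyte precursor-like sums the CA3 list was 453 to 511 CPM in young and 548 to 627 CPM in old mice, the subicular or cortical list 898 to 1054 against 1136 to 1287 CPM, and the precursor list itself 8827 to 10420.0 against 10540.0 to 11450.0 CPM. In young and old mice Grik4 held 69.8% and 72.6% of that CA3 list, and Lhfpl3 71.8% and 76.0% of the precursor list. The part of these shifts in the results was not tested. The member calls fell from 4 to 0 without old ad libitum mouse 2 or 4 or young mouse 2, to 1 without old ad libitum mouse 1 or long-term mouse 4, and to 2 without acute mouse 2, while Igf1r in granule sums stayed between 0.62 and 0.75.

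Restriction moved no member past the threshold. Acute restriction, long-term restriction and long-term against acute restriction gave 0 calls among 73 member pairs in edgeR and 0 in DESeq2, against 0.229%, 0.046% and 0.0119% of all pairs called by edgeR. An unadjusted p below 0.05 was reached by 4, 4 and 0 member pairs, against 5.01%, 4.93% and 3.17% of all pairs. The comparisons with old mice fed ad libitum share those mice with each other and with the ageing comparison, so their values are set side by side and not correlated.

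Igf1r in granule sums stood at 234, 293 and 243 CPM under acute restriction and at 237, 248, 324 and 260.1 CPM under long-term restriction, around the old ad libitum values of 253 to 276. Its log2 fold change was -0.05 (95% interval -0.315 to 0.22) under acute and 0.01 (-0.24 to 0.261) under long-term restriction. All 7 restricted mice were above the 3 young mice. Insr in granule sums changed by -0.06 (-0.286 to 0.162) under acute and -0.06 (-0.271 to 0.148) under long-term restriction. Mtor changed by 0.03 (-0.178 to 0.239) and 0.00 (-0.197 to 0.195). In these granule sums the subicular or cortical marker list was 332 to 359.6 CPM in old mice fed ad libitum, 461 to 503 under acute and 406 to 458 under long-term restriction. The endothelial list was 2.032 to 3.381 CPM in old mice fed ad libitum, 1.52 to 4.36 under acute and 3.605 to 4.609 under long-term restriction. The part of both lists in these values was not tested.

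Irs1 in oligodendrocyte precursor-like sums had the smallest p among members under restriction. It stood at 58.7, 58.9 and 75.1 CPM in old mice fed ad libitum, at 29.7, 38.9 and 38.5 CPM under acute restriction, and at 47.7, 36.7, 43.0 and 47.5 CPM under long-term restriction. Young mice stood at 44.2, 37.4 and 39.0 CPM. All 7 restricted mice and all 3 young mice were below the 3 old mice fed ad libitum. The log2 differences were -0.86 for acute restriction (interval -1.282 to -0.429, adjusted p = 0.102), -0.56 for long-term restriction (adjusted p = 0.49) and 0.67 for age (adjusted p = 0.115), and none passed in edgeR. A term for the libraries numbered 1 brought the acute difference to an adjusted p of 0.0288. All these differences rest on the same 3 old ad libitum mice. Marker lists separated the acute from the old ad libitum mice in these precursor sums too. The precursor list itself was lower under acute restriction (9442 to 10230.0 against 10540.0 to 11450.0 CPM), as was the committed precursor list (1044 to 1100.0 against 1123 to 1177 CPM). The granule (887 to 945 against 813 to 849 CPM), CA1 (183 to 221 against 109.9 to 159 CPM) and ependymal lists (11.6 to 18.4 against 5.09 to 10.3 CPM) were higher. Their part in the Irs1 difference was not tested.

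Irs2, the other adaptor, passed the test in no class under restriction. In oligodendrocyte-like sums, old mice fed ad libitum stood at 95.8, 87.4 and 86.8 CPM and acutely restricted mice at 71.9, 66.1 and 57.8 CPM, with no overlap (-0.48, adjusted p = 0.201, edgeR). Long-term restricted mice stood at 54.7, 81.2, 85.2 and 61.0 CPM, and young mice spread from 54.4 to 91.4 CPM, overlapping both old groups. In CA1 pyramidal neuron-like sums Irs2 lay the other way: 12.9, 12.8 and 12.3 CPM in old mice fed ad libitum and 16.1, 21.3 and 16.1 CPM under acute restriction, with no overlap (0.50, interval 0.032 to 0.961, adjusted p = 1, edgeR). Long-term restricted mice stood at 14.4, 16.6, 15.3 and 8.14 CPM in CA1 sums. In the oligodendrocyte-like sums, the granule (3781 to 3818 against 4062 to 4228 CPM), inhibitory (1972 to 2157 against 2169 to 2655 CPM) and committed precursor marker lists (810.5 to 943 against 1000 to 1059 CPM) were lower under acute restriction than in old mice fed ad libitum. The mossy cell list was higher there (14.6 to 19.0 against 2.48 to 14.2 CPM). Single genes held most of each list, given here for old ad libitum and acutely restricted mice. Dock10 held 86.2% and 85.1% of the granule list and Erbb4 94.4% and 90.5% of the inhibitory list. Bcas1 held 69.3% and 70.3% of the committed precursor list and Ociad2 61.2% and 58.6% of the mossy cell list. The part of these lists in any result of this class was not tested.

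Igf1 in inhibitory neuron-like sums differed by -0.17 (interval -0.613 to 0.27) under acute and by -0.21 (-0.619 to 0.201) under long-term restriction, and neither passed the test. Insr in endothelial cell-like sums stood at 610.3, 791 and 604 CPM under acute restriction and at 470.1 and 477 CPM in the old ad libitum mice with enough nuclei (0.47, adjusted p = 0.994, edgeR). These groups did not overlap, but the sums held 30 to 76 Insr UMIs each.

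By direction, 35 of 73 member pairs were above 0 under acute restriction (median -0.01) and 27 under long-term restriction (median -0.05). Groups did not overlap in 6 pairs higher and 5 lower under acute restriction, against 5.82% and 6.82% of all pairs. Under long-term restriction the counts were 0 higher and 6 lower, against 3.58% and 3.87%. Long-term against acute restriction had 1 higher and 6 lower, against 2.73% and 2.32%. Foxo3 in microglia-like sums had the lowest long-term value, -0.61 (adjusted p = 0.803, edgeR): the old ad libitum mice stood at 472, 241 and 138 CPM and the long-term mice at 171, 176, 111 and 228 CPM, which overlap.

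**Figure D5:**
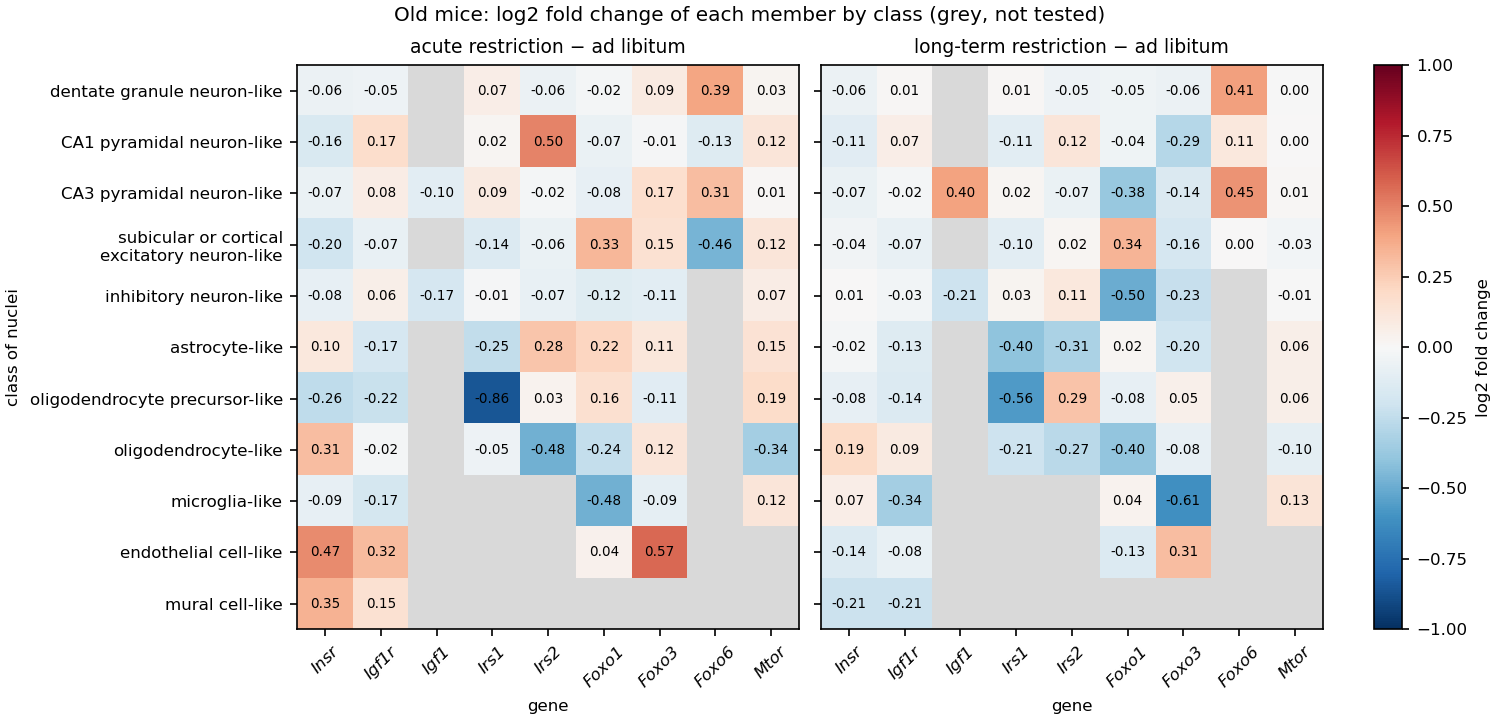
Log2 fold change of each gene (columns) in each class (rows) under acute and long-term restriction against old mice fed ad libitum; numbers are the values, colour follows them and grey cells were not tested. No cell passed an adjusted p of 0.05; the lowest acute value is Irs1 in oligodendrocyte precursor-like sums (-0.86) and the lowest long-term value is Foxo3 in microglia-like sums (-0.61).

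A list of 61 other pathway genes, chosen with earlier results of these data known, gave 412 tested pairs. With age, 5 of these were called, all higher, and the median was 0.07; over all pairs of gene and class 1.58% were called and 0.907% were called higher. The count depended on the fit: it was 10 in DESeq2, 15 with the replicate block, 21 with a term for the libraries numbered 1, 15 without those libraries and 0 with the depth covariate. The share of all pairs called under these fits is not given here, so whether the list moved more than all genes in them was not assessed. Among receptors and adaptors other than the members, 2 of 54 pairs were called. Grb14, an adaptor that binds and inhibits the insulin receptor, rose in oligodendrocyte precursor-like sums from 137, 137 and 135 CPM to 229.7, 210.5 and 215 CPM (0.66, adjusted p = 0.0182, edgeR). Grb10, its relative with a like inhibitory role, rose in granule sums from 39.5, 33.9 and 40.6 CPM to 51.7, 59.7 and 63.1 CPM (0.61, adjusted p = 0.0199). Of 128 pairs for PI3 kinase and AKT, 1 was called, in oligodendrocyte-like sums, where 7.82% of all genes were called and 3.66% were called higher: Pik3r3, a regulatory subunit of PI3 kinase, rose from 71.1, 76.7 and 73.5 CPM to 117, 123 and 126 CPM (0.71, adjusted p = 0.00512). The groups of Grb10, Grb14 and Pik3r3 did not overlap. In oligodendrocyte-like sums the CA3 (124 to 161 against 232 to 256 CPM) and granule marker lists (3117 to 3929 against 4062 to 4228 CPM) were also higher in old than in young mice. The mossy cell (14.4 to 45.3 against 2.48 to 14.2 CPM) and precursor lists (159 to 169.7 against 124 to 155 CPM) were lower. In young and old mice Grik4 held 68.9% and 69.6% of the CA3 list and Dock10 87.1% and 86.2% of the granule list. The part of these lists in the calls of this class was not tested.

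Of 127 pairs for the TSC and mTOR complexes, 2 were called with age, against 1.58% of all pairs. Rptor, the scaffold that brings substrates to mTOR complex 1, rose in oligodendrocyte-like sums by 0.54 (adjusted p = 0.0475, edgeR), and this value was 0.15 without the libraries numbered 1. Sesn3 rose in granule sums by 0.50 (adjusted p = 0.0486), from 48.1 ± 6.0 to 67.7 ± 7.1 CPM (SD, n = 3 each). None of 29 binding protein pairs and none of 74 pairs for FoxO relatives and targets was called with age in edgeR, with 1 and 7 at an unadjusted p below 0.05, against 18.5% of all pairs. With the length trend removed, Grb10 alone of these 5 was called (adjusted p = 0.0392, edgeR), and with the depth covariate none was (0.426 to 0.921). The ligand genes Igf2, Ins1 and Ins2 passed the filter in no class.

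Under acute restriction 3 of the 412 pairs were called, against 0.229% of all pairs. The list was chosen with earlier results of these data known, so this count is a description. All 3 stand among the list's FoxO relatives and targets, all in oligodendrocyte-like sums and all higher. The marker lists that differed in these sums are given above with Irs2. In that class 2.01% of all genes were called and 0.862% were called higher. Pdk4, the kinase that shuts down pyruvate dehydrogenase in fasting, stood at 10.6, 7.0 and 8.2 CPM in old mice fed ad libitum and at 56.8, 30.99 and 54.8 CPM under acute restriction. Long-term restricted mice stood at 16.1, 18.7, 10.1 and 16.8 CPM and young mice at 10.2, 18.9 and 17.4 CPM, so the acute group stood apart from the 3 other groups. The log2 fold change was 2.48 (adjusted p = 6.17e-06), and long-term against acute restriction differed by -1.53 (adjusted p = 0.0036, edgeR), the only list pair called in that comparison. With the depth covariate these had adjusted p-values of 0.00873 and 0.201. Klf15, a fasting-induced transcription factor, rose from 26.6, 19.3 and 19.2 CPM to 30.3, 35.7 and 43.4 CPM (0.93, adjusted p = 0.0185), while long-term restricted mice stood at 25.8 to 34.8 CPM. Cdkn1a, which encodes the cell cycle inhibitor p21, rose by 2.23 (adjusted p = 0.0445) on 2, 7 and 7 UMIs in old ad libitum and 8, 37 and 21 UMIs in acutely restricted mice. Klf15 and Cdkn1a were not called in DESeq2 (adjusted p = 0.262 and 0.207) or with the depth covariate (0.209 and 0.531, edgeR). Foxo1 and Foxo3 themselves differed by -0.24 and 0.12 in the same oligodendrocyte-like comparison and were not called. Long-term restriction gave 0 calls on the list in edgeR and 0 in DESeq2, with 12 pairs at an unadjusted p below 0.05, against 4.93% of all pairs.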

How the data were processed

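Nuclei of frozen hippocampus were sorted after Hoechst staining and sequenced with 10x Genomics 3′ chemistry, per the labels' protocols. The authors deposited UMI counts for each gene in each barcode, made with Cell Ranger 4.0.0 on mm10, per the submitters' processing notes. Counting of introns, use of strand, ambient correction and doublet removal are not given in the sources used here. The members and all lists were chosen with earlier results of these data known.

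Barcodes under 500 genes or above 5% mitochondrial UMIs were dropped, leaving 105427 of 105759. The highest-scoring 7386 (7.006%) were removed as doublets, at 0.8% per 1000 barcodes. The rest were clustered (scanpy 1.11.5, leidenalg 0.10.2, resolution 1) on 2000 variable genes that left out the members and the pathway list. Clusters were named from marker lists, 23 of 51 in 16 classes. The floor of 20 CPM for leading genes was set after a floor of 5 had left microglia unnamed, and it left a fibroblast-like cluster unnamed (0.107%, 0.0739%, 0.244% and 0.413% of nuclei in young, old ad libitum, acute and long-term mice).

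Counts were added up within each class of each mouse (at least 20 nuclei per sum, at least 2 mice per group) and tested with edgeR 4.0.16 in R 4.3.3 (TMM, filterByExpr, robust quasi-likelihood, all 13 mice, no covariates). P-values were adjusted over all genes of a class. Mice without a sum in a class are missing from its fit, as 4 were for endothelial cell-like sums. Neighbouring classes were compared by exact two-sided sign flips over mice on log2 CPM (prior count 2), where the smallest p with 13 mice is 0.000244, and on CPM with no prior. Named were all members, list genes called in a contrast (at most 10 each) and the closest of the genes with a class mean of at least 10 CPM. Libraries are taken as separate mice, as the labels imply, and p-values measure only the spread between these samples. Alternatives were other normalization, filters, DESeq2 1.42.0, covariates, gene length and each mouse left out. Promoter sequences are from RefSeq (GRCm38.p6).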

Additional observations from a re-analysis of the deposited data

Results flagged for a closer look

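In 5 of the 67 groups of 4 mice examined, all of them under long-term restriction, 1 mouse stood apart from the other 3, where chance gives about 1 in 20. Foxo1 in oligodendrocyte-like sums was 6.99 (log2 CPM) in replicate 1, with the others at 5.89 to 6.04. Mtor in oligodendrocyte precursor-like sums was 5.57 in the same replicate, with the others at 6.04 to 6.1. Replicate 3 stood apart for Igf1r in subicular or cortical excitatory neuron-like sums (8.86, others 8.35 to 8.41). The same replicate was high for Insr in CA1 pyramidal neuron-like sums (6.80, others 6.39 to 6.46) and for Irs1 in astrocyte-like sums (6.43, others 6.04 to 6.08). None of these pairs was called under long-term restriction.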

How the results depend on the processing

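The 4 member calls with age became 7 with no filter on low counts, 7 with the replicate block, 7 with a term for the libraries numbered 1, 1 with only the 2 groups in the fit, 1 with the length trend removed and 0 with median UMIs as a covariate. They ranged from 0 to 5 with each mouse left out. The share of all pairs called under these fits, and under those of the list below, is not given here. The call left with only the 2 groups was Igf1r in oligodendrocyte precursor-like sums, and Igf1r in granule sums then had an adjusted p of 0.0516. DESeq2 gave 5 calls, without that precursor pair (adjusted p = 0.0559) and with Foxo1 in granule and Igf1r in inhibitory neuron-like sums. Foxo1 in granule sums was also called with doublets kept, with the stricter filter, with the members among the variable genes, with the replicate block and with the number 1 term. The block and the number 1 term also called Igf1r in inhibitory neuron-like (adjusted p = 0.0209 and 0.0234) and oligodendrocyte-like sums (0.0198 and 0.0481). Igf1r in oligodendrocyte-like sums reversed with the length trend removed (-0.0724, adjusted p = 0.882, edgeR). Under acute restriction, 1 member was called with the number 1 term, and 0 with each mouse left out, as in the other restriction comparisons.

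The 5 list calls with age became 10 in DESeq2, 3 with DESeq2 size factors, 15 with the replicate block, 21 with the number 1 term, 15 without the libraries numbered 1 (chosen after seeing the data), 1 with the length trend removed and 0 with the depth covariate, and ranged from 0 to 10 with each mouse left out. The 3 acute list calls became 1 in DESeq2 and 1 with the depth covariate (1 to 3 with each mouse left out). Long-term list calls (0) became 1 with no filter, with the block and with the number 1 term (0 to 1 with each mouse left out). Long-term against acute (1) became 2 with no filter, the block, the number 1 term, the length trend removed or without the libraries numbered 1, and 0 with the depth covariate (0 to 2 with each mouse left out). Separated neighbours (33) were 21 with at least 50 nuclei per sum, where no step with endothelial cell-like or mural cell-like sums could pass. They were 28 to 33 with each mouse left out. The cause of these shifts was not tested.

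Replicate numbers were not taken as pairs: in granule sums 10 of 16 same-numbered pairs of mice had deviations correlated above 0.1 (-0.1171 to 0.7749), and the 6 pairs numbered 1 ranged from 0.3607 to 0.7749. The labels do not call that number a batch. Endothelial cell-like, mural cell-like and microglia-like sums were the shallowest, with 2526, 2007 and 3970 genes tested.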
